A study of Homo sapiens with 4 samples.

Results

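The BCL2 family sets whether a cell opens the outer membrane of its mitochondria and dies by apoptosis. The 10 family members described here were taken by gene symbol from a table of 16376 genes, and all 10 were listed in it. They are 3 guardians (BCL2, BCL2L1 and MCL1), 2 effectors (BAX and BAK1) and 5 BH3-only members (BCL2L11, BBC3, PMAIP1, BID and BAD). RNA was sequenced from LASCPC-01, a human neuroendocrine prostate cancer (NEPC) cell line built by combined expression of NMYC and activated AKT1, which the labels call wild type. Cells received PBS as the control or fluoxetine, an antidepressant that blocks serotonin reuptake, with 2 libraries in each group. The fluoxetine dose was 5 µM, and the treatment is described as lasting 48 h, whereas the labels place all 4 libraries at day 3. Sample titles mark the fluoxetine samples with the letters PP. The comparison asks whether RNA of the genes that govern apoptosis differed between the treatments, in a study that examined cell viability and apoptosis under this drug. This is a single line, and nothing in the labels says that the libraries of a group came from separate cultures, so p-values measure the spread between these libraries, which may be technical.

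As background, effectors form pores in the outer mitochondrial membrane, through which cytochrome c leaves and starts the caspase cascade. Guardians hold effectors and BH3-only proteins in check by binding their BH3 segment. BH3-only proteins report damage, loss of growth signals or stress, and they act by occupying guardians or by engaging effectors. AKT, which is active in this line, phosphorylates BAD and keeps FOXO factors, inducers of BCL2L11, out of the nucleus. Much of this control acts on proteins, which RNA levels do not show.

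Levels are given as FPKM, in which the fragments of a gene are divided by its length in kilobases and by the number mapped in that library. Whole read numbers could be solved from the FPKM of 93.8% of the genes above 0. These came to between 26771161 and 28371723 reads per library, and the 10 members held between 459 and 7016 reads in a library. The 12663 genes with a mean of at least 0.1 FPKM were compared by limma after taking log2(FPKM + 0.1), and p-values were adjusted by Benjamini-Hochberg. Fold changes are on this scale. Of the 9 NEPC markers examined, 5 had a mean of at least 1 FPKM, among them INSM1 and NCAM1, whereas CHGA, CHGB and SCG3 were below 0.1 FPKM. The summed NEPC markers were lower with fluoxetine (537.3 to 591.3 FPKM) than with PBS (606.8 to 623.6 FPKM), and the summed luminal markers were higher (848.8 to 904.7 against 786.0 to 839.1 FPKM), without a test of the sums. The white blood cell markers summed to at most 0.176 FPKM in a PBS library and 0.147 FPKM in a fluoxetine library, and the endothelial markers to at most 0.218 and 0.170 FPKM. The fibroblast markers, mostly COL1A1, summed to between 2.85 and 2.96 FPKM with PBS and between 1.93 and 2.81 FPKM with fluoxetine, and the part of these lists in the results was not tested. In bulk RNA, fewer cells of a type and less RNA per cell cannot be told apart.

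None of the 10 members passed an adjusted p of 0.05 in limma, and 1 of 10, BID, had an unadjusted p under that level. Over all genes tested, 0.237% passed the adjusted threshold and 8.51% the unadjusted one. The log2 fold changes of the members ran from -0.10 for PMAIP1 to 0.21 for BID, with 5 below and 5 above 0, and their median was 0.016 against -0.021 for all genes tested. Their 95% confidence intervals together spanned -0.34 to 0.40. The limma voom fit to the recovered reads called 0 members as well. In 1 member, BBC3, both fluoxetine libraries lay below both PBS libraries, a pattern of 24.8% of all genes tested. In 1 member, BID, both lay above, as in 16.7% of all genes. These counts depended on the scaling. With median centring of each library, 0 members lay below, beside 19.9% of all genes, and 4 lay above (BCL2L1, BAX, BID and BAD), beside 21.3% of all genes.

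The guardians differed widely from one another in level and little between the treatments. BCL2, the founding member, which holds back BAX and BCL2L11, spans bases 63123346 to 63320128 of chromosome 18 (build GRCh38, annotation GENCODE 29, as for all genes below). Its PBS libraries held 3.65 and 3.85 FPKM, and its fluoxetine libraries 3.60 and 3.78 FPKM. The groups overlapped, and its log2 fold change was -0.02 (95% interval -0.27 to 0.23, adjusted p = 0.972). BCL2L1, which encodes BCL-XL and lies on chromosome 20 from 31664452 to 31723989, had 48.33 and 48.03 FPKM with PBS and 51.05 and 48.04 FPKM with fluoxetine. The higher value stood in fluoxetine replicate 1, the other 3 libraries were close together, and the log2 fold change was 0.04 (interval -0.12 to 0.20, adjusted p = 0.885). MCL1, a short-lived guardian that binds PMAIP1 and BAK1, lies on chromosome 1 from 150574551 to 150579738. It had 50.5 and 48.3 FPKM with PBS and 47.2 and 51.0 FPKM with fluoxetine. Here the fluoxetine libraries enclosed both PBS libraries, and the log2 fold change was -0.0080 (interval -0.17 to 0.15, adjusted p = 0.985). The direction of all 3 turned in at least 1 alternative or with 1 library left out.

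Both effectors had a positive log2 fold change that did not pass the test. BAX, on chromosome 19 from 48954815 to 48961798, moves from the cytosol to mitochondria when activated. It had 33.1 and 28.4 FPKM with PBS and 33.3 and 32.98 FPKM with fluoxetine. PBS replicate 2 was the low library, whereas PBS replicate 1 lay within the fluoxetine range. The log2 fold change of BAX was 0.11 (interval -0.07 to 0.30, adjusted p = 0.686), and without PBS replicate 2 it was 0.0034. BAK1, which sits in the mitochondrial membrane from the start, lies on chromosome 6 from 33572547 to 33580293. Its FPKM were 12.7 and 11.3 with PBS and 13.5 and 11.9 with fluoxetine, so the groups overlapped. The log2 fold change was 0.08 (interval -0.13 to 0.29, adjusted p = 0.823), and it was -0.0054 without PBS replicate 2 and -0.014 without fluoxetine replicate 1.

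BAX has 4 copies of the E-box, a sequence bound by MYC proteins, in the promoter window described here. MYCN (NMYC), which was expressed together with activated AKT1 to build this line, had 323 to 387 FPKM over the libraries. A link between MYCN and BAX was not tested. The promoter window of BAX is shown because it held more copies of this E-box than that of any other matched member. RefSeq windows of 300 bases, 250 before and 50 after the start site, were found for 9 of the 10 members, MCL1 being the exception. The E-box CACGTG, which reads the same on both strands, was in a window of 3 of the 9 (BAX, BBC3 and BID) and in 7.26% of 35116 windows. The shorter ACGTG, the core of the hypoxia response element and part of the E-box, was searched on both strands and was in a window of the same 3 genes and in 21.4% of all windows. The percentages count single windows with at least 1 copy, so they do not tell how many windows hold 4. A gene with several windows was counted if any of them held the motif, so the shares are not in the same unit. BAX held 4 copies of CACGTG and 1 further ACGTG. BID had 5 windows listed, of which those from 17773934 and from 17773993 on chromosome 22 held the motif. The window below is from chr19:48954625-48954924 on the plus strand of GRCh38.p14, with every ACGTG on either strand in capitals.
BAX promoter: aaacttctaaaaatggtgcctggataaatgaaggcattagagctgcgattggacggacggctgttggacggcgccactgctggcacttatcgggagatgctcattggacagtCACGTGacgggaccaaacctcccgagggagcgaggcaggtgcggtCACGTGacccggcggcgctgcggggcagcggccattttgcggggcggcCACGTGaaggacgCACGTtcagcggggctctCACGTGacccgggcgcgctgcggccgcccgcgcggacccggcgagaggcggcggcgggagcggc
These are matches of letters and do not show binding of a factor.

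Among the BH3-only members, BCL2L11, BBC3 and PMAIP1 had negative log2 fold changes and BID and BAD positive ones, and none passed the adjusted test. BCL2L11 encodes BIM, which engages guardians and effectors alike and responds to loss of growth factor signals. It lies on chromosome 2 from 111119378 to 111168447 and had 11.9 and 12.6 FPKM with PBS and 10.92 and 12.04 FPKM with fluoxetine. The groups overlapped, since fluoxetine replicate 2 was above PBS replicate 1, and the log2 fold change was -0.09 (interval -0.29 to 0.10, adjusted p = 0.760). BBC3 encodes PUMA, a target of p53, and lies on chromosome 19 from 47220822 to 47232766. Its FPKM were 14.0 and 13.2 with PBS and 12.8 and 13.2 with fluoxetine, the nearest values of the groups being 13.25 and 13.18. Its log2 fold change was -0.07 (interval -0.25 to 0.11, adjusted p = 0.826).

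PMAIP1 encodes NOXA, which pairs mainly with MCL1, and it was the BH3-only member with the lowest FPKM. It lies on chromosome 18 from 59899948 to 59904306 and had 8.47 and 7.77 FPKM with PBS and 6.88 and 8.31 FPKM with fluoxetine. The low library was fluoxetine replicate 1 with 459 reads, while fluoxetine replicate 2 lay between the PBS libraries. The log2 fold change was -0.10 (interval -0.34 to 0.14, adjusted p = 0.789), and without fluoxetine replicate 1 it was 0.03. The spread of its fluoxetine libraries was 13.3% of their mean, against a counting error of 4.67% at the fewest reads.

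BID links death receptors to mitochondria once caspase 8 has cut it, and it had the smallest p of the members. It lies on chromosome 22 from 17734138 to 17774770 and had 17.8 and 16.0 FPKM with PBS and 18.5 and 20.5 FPKM with fluoxetine. Both fluoxetine libraries were above both PBS libraries, with means of 16.9 ± 1.22 FPKM (SD, n = 2) and 19.5 ± 1.45 FPKM (SD, n = 2). The log2 fold change was 0.21 (standard error 0.09, interval 0.02 to 0.40, adjusted p = 0.552 from limma), which is 1.16-fold as a ratio of the group means. It ran from 0.13 to 0.28 with 1 library left out, and its adjusted p was between 0.369 and 0.989 over all alternatives. BAD, which AKT phosphorylates and holds away from BCL2L1, lies on chromosome 11 from 64269830 to 64284704. It had 19.6 and 19.4 FPKM with PBS and 19.4 and 22.3 FPKM with fluoxetine. The high library was fluoxetine replicate 2, and the log2 fold change was 0.09 (interval -0.09 to 0.28, adjusted p = 0.751) and -0.0059 without that library.

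Across libraries, the genes whose pattern was most like that of BID were MFSD11, SCO1 and FAM189A2. The measure was Pearson's r of log2(FPKM + 0.1) over the 4 libraries among genes with a mean of at least 1 FPKM. With so few libraries, 46 of 10579 genes had an r above 0.99, and the 3 are named as a description.

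**Figure D1:**
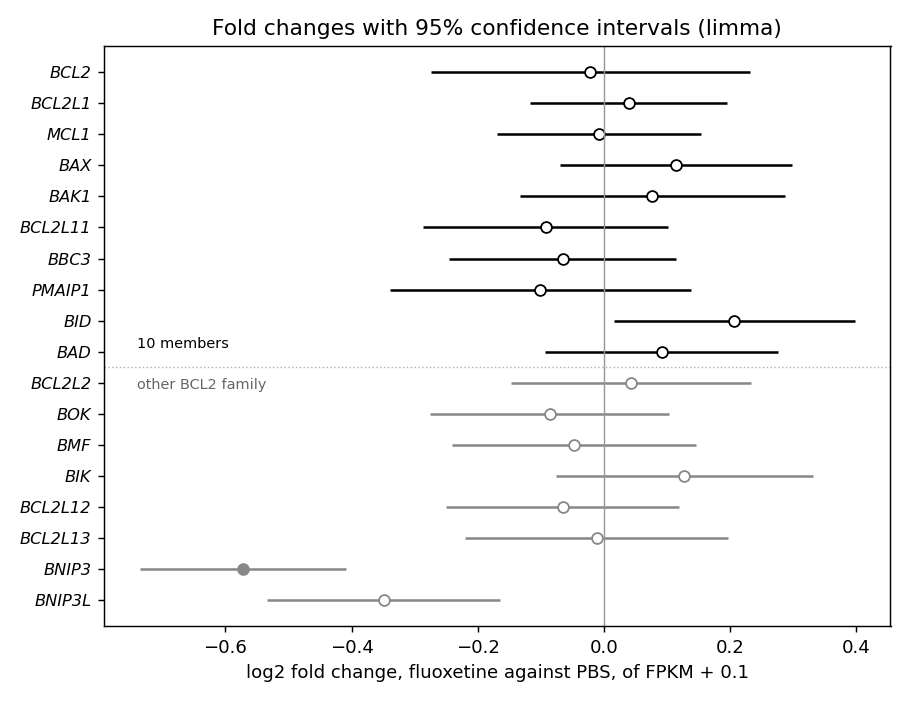
Log2 fold change of FPKM + 0.1, fluoxetine against PBS, with 95% confidence intervals from limma, for the 10 members (black) and 8 other family genes (grey). The filled point marks an adjusted p under 0.05, which BNIP3 alone reached here, and the interval of BID alone among the members does not cross 0.

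Libraries were not alike in the dependence of FPKM on length, which bears on the values of the members. Across 12589 genes, which are not independent, the deviation from a gene's mean had a correlation with log2 length of -0.27 in fluoxetine replicate 1 and of 0.18 in PBS replicate 2. With this trend removed in each library, a step chosen after the data were seen, the log2 fold change of BAX, divided by a length of 894 bases, went from 0.11 to 0.03. That of BAD, at 931 bases, went from 0.09 to 0.0086. At the other end, BCL2L11, at 7700 bases, went from -0.09 to -0.01, and BCL2, at 10146 bases, went from -0.02 to 0.09. BID, at 2662 bases, went from 0.21 to 0.19 and kept its direction. BBC3, at 2376 bases, and PMAIP1, at 1917 bases, moved further below 0, from -0.07 to -0.09 and from -0.10 to -0.14. Exons of 6 members (BAD, BAK1, BBC3, BCL2L1, BCL2L11 and MCL1) overlap exons of another annotated gene, so part of their reads is uncertain.

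On the FPKM scale, which is per length, the levels of the members over all 4 libraries ran from 49.2 ± 1.79 FPKM (SD, n = 4) for MCL1 to 3.72 ± 0.114 FPKM (SD, n = 4) for BCL2. The order was MCL1, BCL2L1, BAX, BAD, BID, BBC3, BAK1, BCL2L11, PMAIP1 and BCL2. The ranges of neighbours overlapped between MCL1 and BCL2L1, between BAD and BID, between BBC3 and BAK1 and between BAK1 and BCL2L11, and did not overlap elsewhere. The order in the middle rests on the length by which the authors divided. For BAX this came to 894 bases, whereas the merged exons of GENCODE 29 cover 2587 bases. With merged exon lengths, chosen after the data were seen, BAX stood at 11.04 in place of 31.9 FPKM and was the fifth of the 10, while MCL1 and BCL2L1 remained the highest and BCL2 the lowest.

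The balance of guardians to their partners was read as the ratio of FPKM within each library, for 6 pairs. The size of a ratio rests on the lengths by which the authors divided, 894 bases for BAX, and these are the same in every library. The BCL2 to BAX ratio was 0.110 and 0.136 with PBS and 0.108 and 0.115 with fluoxetine. The BCL2L1 to BAD ratio was 2.47 in both PBS libraries and 2.63 and 2.16 with fluoxetine. For MCL1 to PMAIP1, it was 5.95 and 6.21 with PBS and 6.86 and 6.14 with fluoxetine. In these 3 pairs, and for BCL2L1 to BAK1 and MCL1 to BAK1, the groups overlapped. The BCL2 to BCL2L11 ratio was the exception, with 0.308 and 0.305 under PBS and 0.3297 and 0.314 under fluoxetine. The fluoxetine mean was 0.07 higher on the log2 scale and did not pass a test, since the two-sided exact permutation p was 0.333, the smallest that 2 against 2 libraries allow (1 after adjustment over the 6 pairs).

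Outside the 10 members, 13 further family genes were examined, 12 were listed and 8 had a mean of at least 0.1 FPKM. Of these 8, 1 fell, BNIP3, and 0 rose. Over all genes tested, 0.213% were called lower and 0.0237% higher. BNIP3 and BNIP3L encode receptors on mitochondria with an atypical BH3 segment that mark these organelles for removal by autophagy, and both genes are known targets of hypoxia signalling. BNIP3, on chromosome 10 from 131966455 to 131982013, had 96.9 and 87.6 FPKM with PBS and 62.3 and 61.6 FPKM with fluoxetine. The fluoxetine libraries held 3343 and 3310 reads against 4914 and 4697 with PBS, and the groups stood well apart. Its log2 fold change was -0.57 (standard error 0.07, interval -0.74 to -0.41, adjusted p = 0.0070 from limma), which is 0.671-fold as a ratio of the means. With any 1 library left out, the fall remained between -0.65 and -0.50 and the adjusted p was between 0.102 and 0.235. It was 0.610 without the filter on low values and 0.339 without the variance trend. GENCODE 29 names 39 pseudogenes after BNIP3, none of them listed in the table, and how reads shared with them were counted is not known.

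The promoter window of BNIP3 is shown because this gene passed the test. It spans chr10:131981874-131982173 on the minus strand of GRCh38.p14, and the capitals mark ACGTG on either strand, here within 1 copy of CACGTG whose first letter lies 134 bases before the start site.
BNIP3 promoter: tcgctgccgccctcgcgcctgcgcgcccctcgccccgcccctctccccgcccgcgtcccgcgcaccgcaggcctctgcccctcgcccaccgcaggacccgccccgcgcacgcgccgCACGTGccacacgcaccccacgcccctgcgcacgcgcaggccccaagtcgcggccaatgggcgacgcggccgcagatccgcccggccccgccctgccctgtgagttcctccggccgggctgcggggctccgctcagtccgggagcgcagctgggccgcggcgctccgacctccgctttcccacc
ACGTG is in 21.4% of all windows and CACGTG in 7.26%, and their part in the fall of BNIP3 was not tested.

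**Figure D2:**
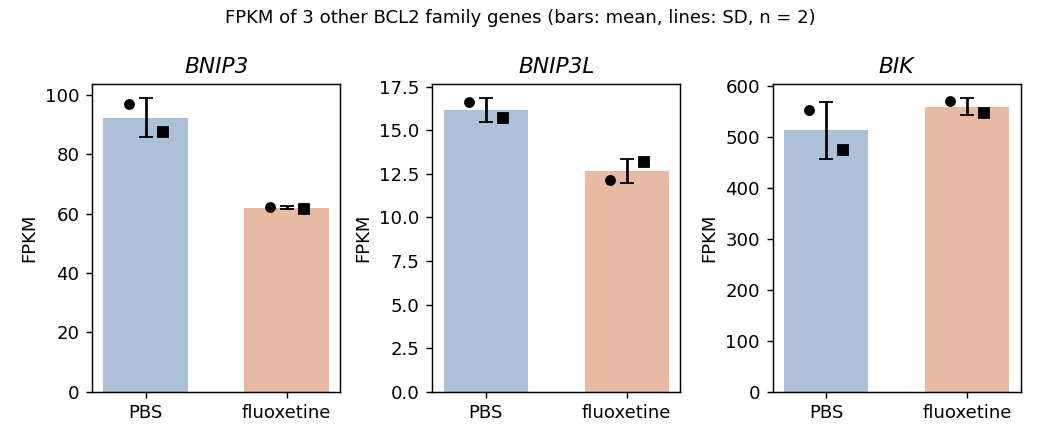
FPKM of BNIP3, BNIP3L and BIK, with bars for group means, lines for the SD (n = 2) and a point for each library, on axes that start at 0. Both fluoxetine libraries lie below both PBS libraries for BNIP3 and BNIP3L, and the groups overlap for BIK.

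BNIP3L, on chromosome 8 from 26382898 to 26505636, had 16.6 and 15.7 FPKM with PBS and 12.2 and 13.2 FPKM with fluoxetine. Its groups did not overlap, fluoxetine being lower, with a log2 fold change of -0.35 (interval -0.53 to -0.16, adjusted p = 0.236). Exons of BNIP3L overlap exons of PNMA2 and SDAD1P1 on the opposite strand, so part of its reads is uncertain.

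BIK, a BH3-only gene whose protein resides mainly at the endoplasmic reticulum, had the highest FPKM of the family by far. It lies on chromosome 22 from 43110748 to 43129712 and had 552.1 and 473.5 FPKM with PBS and 570.4 and 546.6 FPKM with fluoxetine, above 99.5% of all listed genes. The groups overlapped, and its log2 fold change was 0.13 (interval -0.08 to 0.33, adjusted p = 0.683). The other 5 tested genes were BCL2L2, a guardian, BOK, a BAX-like effector, BMF, a BH3-only member, and BCL2L12 and BCL2L13. They had between 7.99 and 14.7 FPKM in a library, overlapping groups and log2 fold changes between -0.09 and 0.04. BCL2L2 shares exons with the read-through gene BCL2L2-PABPN1, so its reads are uncertain. Exons of BOK, BMF and BCL2L12 overlap exons of another annotated gene on the opposite strand, so part of their reads is uncertain as well. BCL2A1, a guardian of blood cells, had 4 and 0 reads with PBS and 0 and 1 with fluoxetine. HRK, a BH3-only gene of neurons, had 0 and 4 reads with PBS and 1 and 10 with fluoxetine. BCL2L15 had 12 and 2 reads with PBS and 18 and 25 with fluoxetine, and BCL2L10 was listed at 0 in 3 libraries and at 0.0218 FPKM in fluoxetine replicate 1. These 4 genes were under 0.1 FPKM on average and were not tested.

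The rest of the pathway was read through 7 lists with 54 genes, of which 52 were tested, and 0 passed the adjusted threshold in either direction, also 0 with voom on the recovered reads. An unadjusted p under 0.05 was found for 7 of the 52, beside 8.51% of all genes tested. Both fluoxetine libraries lay below both PBS libraries in 17 and above them in 10 of the 52 genes, beside 24.8% and 16.7% of all genes. The 4 outer membrane partners (VDAC1, VDAC2, VDAC3 and MTCH2) had a median log2 fold change of 0.09. MTCH2, the receptor of cut BID on mitochondria, had 36.2 and 31.5 FPKM with PBS and 36.3 and 36.4 FPKM with fluoxetine, and the log2 fold change was 0.11 (adjusted p = 0.694).

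Of the 6 factors released from mitochondria or joined in the apoptosome, 0 were called, with a median of 0.03. ENDOG, a nuclease, had 49.0 and 40.8 FPKM with PBS and 53.2 and 50.5 FPKM with fluoxetine (log2 fold change 0.21, adjusted p = 0.552). HTRA2, a protease that removes inhibitors of apoptosis, had a log2 fold change of 0.18 (adjusted p = 0.598), and APAF1, the scaffold of the apoptosome, one of -0.11 (adjusted p = 0.749). Of the caspases and their substrates, 9 of 10 were tested, 0 were called, and the median was 0.02. CASP2, an initiator caspase, had 14.6 FPKM in both PBS libraries and 12.8 FPKM in both fluoxetine libraries, a log2 fold change of -0.19 (interval -0.36 to -0.01, adjusted p = 0.555). DFFB, the nuclease that cuts DNA between nucleosomes, had a log2 fold change of 0.20 (adjusted p = 0.579).

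Of the 6 inhibitors of apoptosis, 5 were tested and 0 were called, with a median log2 fold change of -0.12. XIAP, which blocks caspases directly, had 4.12 and 4.08 FPKM with PBS and 3.30 and 3.79 FPKM with fluoxetine (log2 fold change -0.21, adjusted p = 0.619). BIRC2 had one of -0.12 (adjusted p = 0.683), whereas BIRC5, or survivin, which also serves in mitosis, had one of 0.18 (adjusted p = 0.552). The 8 death receptors and adaptors had a median of -0.0015. CFLAR, the inhibitor of caspase 8 at these receptors, had 2.86 and 2.90 FPKM with PBS and 2.54 and 2.46 FPKM with fluoxetine, and the log2 fold change was -0.20 (adjusted p = 0.648). FADD, the adaptor that recruits caspase 8, had 19.6 and 18.3 FPKM with PBS and 21.2 and 21.7 FPKM with fluoxetine, and the log2 fold change was 0.18 (adjusted p = 0.558). TNFRSF1A, a receptor of tumour necrosis factor, had one of 0.12 (adjusted p = 0.715).

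In each of the lists upstream of the members, 0 genes were called and 7 of 10 had a negative log2 fold change, beside 56.5% of all genes tested. Among transcription factors that induce BH3-only genes, the median log2 fold change was -0.10. ATF3, a stress factor, had 3.69 and 4.11 FPKM with PBS and 3.09 and 3.20 FPKM with fluoxetine, and the log2 fold change was -0.30 (adjusted p = 0.538). FOXO3, which induces BCL2L11 when AKT is inactive, had 6.23 and 6.11 FPKM with PBS and 5.03 and 5.33 FPKM with fluoxetine, and the log2 fold change was -0.25 (adjusted p = 0.541). DDIT3, which encodes CHOP of the endoplasmic reticulum stress response, had one of -0.21 (adjusted p = 0.619). Among genes that act on the turnover or phosphorylation of the members, the median was -0.10. PIM2, a kinase that phosphorylates BAD, had 10.3 and 12.05 FPKM with PBS and 8.89 and 9.98 FPKM with fluoxetine, and the log2 fold change was -0.24 (adjusted p = 0.555). GSK3B, which marks MCL1 for degradation, and USP9X, which protects MCL1 from it, each had one of -0.17 (adjusted p = 0.613 for both).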

How the data were processed

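RNA of 2 PBS and 2 fluoxetine libraries of LASCPC-01 cells was analysed. The authors deposited 1 FPKM value per gene and library. The submitters' processing notes name fastp, HISAT2, HTSeq and GRCh38, and the annotation and the versions are not given in the sources used here. The labels name a stranded TruSeq kit and the methods a VAHTS kit, and whether counting used the strand is not known. For each gene, the smallest whole read numbers, searched up to 30000 in the library with fewest, were sought whose ratios gave the FPKM ratios, within 0.004 of a whole number. True reads can be multiples of these. Lengths are those implied at a depth shared by 99 genes with GENCODE 29 exon lengths. Replicates differed by more than sampling noise (the chi-square divided by its degrees of freedom was 8.39 between PBS libraries and 10.2 between fluoxetine libraries), and each was kept as a sample.

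Groups were compared with lmFit and eBayes (with trend) of limma 3.58.1, run in R 4.3.3, after transformation to log2(FPKM + 0.1), since FPKM are not counts and the study's count test needs those. Scripts ran in Python 3.11.15 and were tested on simulated data. Members, lists and the rule for named genes were chosen with earlier results of these data known. Named were the 10 members, the other family genes and, of each other list, genes with an adjusted p under 0.05 and up to 3 with the largest log2 fold change among those without overlap and with a mean of at least 1 FPKM, of which 1 is not reported here. Results were recomputed under 14 other settings (pseudocount, filter, scaling, eBayes options, replicate block, each library left out) and 3 chosen after seeing the data. Intervals cover the spread between libraries as limma models it.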

Additional observations from a re-analysis of the deposited data

How the results depend on the processing

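None of the 10 members had an adjusted p under 0.05 in any of the 17 alternatives, where the smallest was 0.369, for BID with voom on the recovered reads. The count of all genes called moved more, from 30 to 0 without the filter on low values, 16 with quantile normalization, 0 without the variance trend and 53 with voom, and to between 2 and 12 with 1 library left out. At an unadjusted p under 0.05, limma gave 1175 genes without the filter and 933 without the trend. Of the other pathway genes, the 1 called, BNIP3, was lost (0 called) without the filter, without the trend and with any 1 library left out (0 in each). With quantile normalization, 0 members had both fluoxetine libraries below both PBS libraries (19.8% of all genes did). With median centring, 0 had both below (19.9% of all genes) and 4 had both above (21.3% of all genes). Small log2 fold changes turned. BCL2 came to 0.031 with quantile normalization, 0.0046 with median centring and 0.086 with the length trend removed, and BCL2L1 to -0.0082 after rescaling to TPM. MCL1 came to 0.018 with median centring, 0.015 with the length trend removed and 0.00015 with voom. With 1 library left out, the values ran from -0.058 to 0.015 for BCL2, -0.0041 to 0.083 for BCL2L1, -0.063 to 0.047 for MCL1, -0.014 to 0.17 for BAK1, -0.24 to 0.034 for PMAIP1 and -0.0059 to 0.19 for BAD. The cause was not tested. A lone library left in a group is assumed to vary like the others.

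The labels number the libraries 1 and 2 in each group, and deviations from the group means had a correlation of 0.035 between libraries of one number over all genes tested, 0.058 over genes with a mean of at least 1 FPKM and 0.101 over those with at least 10 FPKM. Nothing in the labels ties a number to a shared culture or day, so they were taken to share a number and no more. Adding a replicate block gave 64 called genes, 0 of them members, and 55 with the length trend removed as well. With both together, BCL2 came to 0.086 and MCL1 to 0.015, as without the block.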
